A study of Mus musculus with 6 samples.

Results

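The genes described here are the interleukins and their receptors, taken as every symbol made of Il and a number with optional lower-case letters or digits after it. Of 54232 genes in the count table, 85 gene IDs with 83 symbols matched, since Il11ra2 stands for 3 IDs. The 46 genes with 10 or more counts summed over the 6 libraries are described below: 12 ligands, 30 receptor chains, 3 soluble inhibitors and Il4i1, an amino acid oxidase that carries an interleukin symbol only because interleukin 4 induces it. Of the other 39 IDs, 19 had 1 to 9 counts and 20 had 0. The rule used no measured difference between groups.

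Stranded mRNA libraries were made from tibialis anterior (TA), the fast-twitch muscle at the front of the shin, of C57BL6 mice aged 1 month. The first group was 3 wild-type libraries (WT 1, WT 2 and WT 3). The second was 3 libraries from mice of the genotype Delta 51, in which exon 51 of the dystrophin gene Dmd is deleted (dEx51 4, dEx51 5 and dEx51 6), and the labels name no treatment or transgene in either group. The comparison asks what loss of the exon does to transcript levels in the muscle. Each library is called a biological replicate in the labels, but the sources used here do not give whether litters or handling days were shared. The p-values set the difference between the groups against the spread between these libraries, which the model estimates with help from all genes.

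The libraries held 15681945 to 21020353 assigned reads. Levels are CPM (reads of a gene per 1e6 reads, after TMM scaling of library sizes by edgeR). A log2 fold change sets dEx51 over WT and comes with its SE, the standard error. Dmd stood at 235, 249 and 266 CPM in WT 1 to 3 and at 47.7, 46.4 and 51.1 CPM in dEx51 4 to 6 (log2 fold change -2.37, SE 0.0944, adjusted p = 2.77e-05 by edgeR). All 10 fast muscle fibre markers were detected, with a summed level of 146257 to 148927 CPM in WT and 94746 to 135427 CPM in dEx51. Of the 10, 0 were called in either direction, but 9 were called lower without dEx51 6 and 5 with DESeq2. In a principal component analysis dEx51 6 lay nearer to WT on the first component (30.6) than dEx51 4 (51.6) and dEx51 5 (55.1), with WT at -58.1 to -38.1. Results below were therefore also computed without dEx51 6.

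Interleukins are secreted proteins by which immune and tissue cells signal to each other, and each acts on cells that carry the matching receptor chains. Receptors of the class I and class II cytokine families pass the signal to JAK kinases and STAT transcription factors, and share chains: the common gamma chain serves the receptors of interleukins 2, 4, 7, 9, 15 and 21, and gp130 those of interleukins 6 and 11. Receptors of the interleukin 1 family signal through MyD88 and IRAK kinases, and their ligands interleukin 1 beta and interleukin 18 are cut to the active form by caspase 1 of the inflammasome. Soluble antagonists and decoy receptors hold both arms in check. In injured muscle these signals pass mainly between infiltrating leukocytes, resident mesenchymal cells and regenerating fibres.

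Most of the genes that rose were receptors. Of the 46 genes, 34 passed the expression filter and were tested, 12 rose and 0 fell (edgeR quasi-likelihood test, adjusted p under 0.05 over 14335 genes), where 16.1% of all tested genes were higher, 11.9% lower and 28.0% called in either direction. Scaled to library size alone, 5394 genes were higher and 334 lower in place of 2309 and 1701, and the median of all genes moved by 0.35 on the log2 scale. Under that scaling 20 of the 34 tested genes described here were higher and 0 lower. The 12 were 10 of 24 tested receptors, 1 of 8 tested ligands and 1 of 2 tested soluble inhibitors. Whether the share of calls differed between receptors and ligands was not tested. Over the tested genes the median log2 fold change was 0.95 for receptors and 0.04 for ligands, beside -0.01 for all genes tested. The filter used CPM before TMM scaling. In 5 of these 12 (Il7r, Il1rn, Il18, Il18rap and Il2rb) no WT library reached the CPM of the filter, so these genes entered the test only through the dEx51 libraries and had to be high there. Among the 29 tested genes that reached it in at least 1 WT library, 7 rose. These are whole-muscle libraries, in which a change in the number of cells of a type and a change in RNA per cell cannot be told apart.

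**Figure D1:**
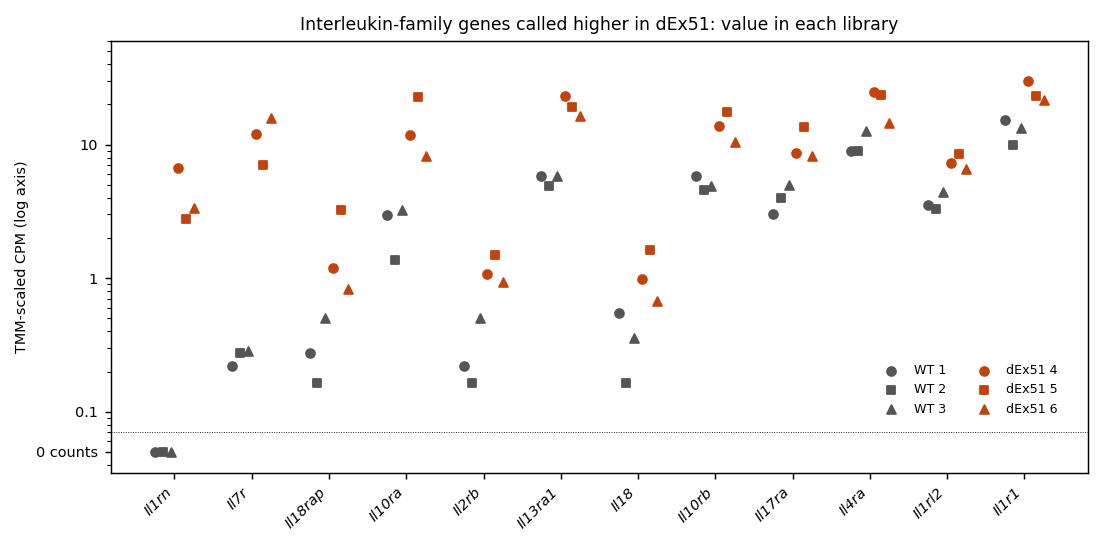
TMM-scaled CPM (log axis) of the 12 interleukin-family genes called higher in dEx51, in each of the 3 WT (grey) and 3 dEx51 (orange) libraries, ordered by fitted fold change, with 0 counts drawn below the dotted line. Every dEx51 point lies above every WT point of the same gene, as in 23.8% of all tested genes. The 12 were picked by their call, which favours such a gap. The dEx51 6 library (triangle) is the lowest dEx51 library for 10 of the 12.

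The 3 ligands with the highest CPM were not called. Il33, an alarmin stored in nuclei of stromal cells and released on damage, stood at 5.87, 9.21 and 8.45 CPM in WT 1 to 3 and at 7.83, 9.19 and 8.67 CPM in dEx51 4 to 6 (log2 fold change 0.13, SE 0.182, adjusted p = 0.633 by edgeR). Il34, which shares the receptor Csf1r with the macrophage growth factor Csf1, stood at 4.37, 6.90 and 6.73 CPM in WT 1 to 3 and at 3.98, 7.35 and 6.02 CPM in dEx51 4 to 6 (log2 fold change -0.05, edgeR adjusted p = 0.903). WT and dEx51 libraries of both genes overlapped. Il15, a muscle-derived factor that sustains natural killer and memory T cells, stood at 7.58, 9.26 and 6.45 CPM in WT 1 to 3 and at 5.90, 6.30 and 4.57 CPM in dEx51 4 to 6. All 3 dEx51 libraries lay below all 3 WT libraries, but Il15 was not called (log2 fold change -0.47, SE 0.188, adjusted p = 0.0950 by edgeR). Fitted with the replicate number as a block it was called lower (-0.47, edgeR adjusted p = 0.0426). The size of the Il15 difference depended on the TMM scaling. With library size alone its log2 fold change was -0.11 (edgeR adjusted p = 0.706). Among all tested genes, 21.7% had every dEx51 library below every WT library and 23.8% had every one above.

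The ligand that rose was Il18 (chr9:50554827-50581840 in GRCm38), whose product drives interferon gamma release by T and natural killer cells. It stood at 0.553, 0.164 and 0.358 CPM in WT 1 to 3 and at 0.984, 1.62 and 0.675 CPM in dEx51 4 to 6, 3.05-fold higher in the group means (log2 fold change 1.6, SE 0.494, adjusted p = 0.0439 by edgeR). The gene was at 10, 3 and 5 counts in WT and 23, 37 and 13 counts in dEx51. The call was lost without WT 2 (log2 fold change 1.23), WT 3 (1.6), dEx51 4 (1.68) or dEx51 5 (1.22), so 4 of the 6 libraries each decide it. Il16, a chemoattractant for CD4+ cells, had every dEx51 library above every WT library, at 3.15, 3.01 and 2.79 CPM in WT 1 to 3 and at 3.68, 6.74 and 4.41 CPM in dEx51 4 to 6 (log2 fold change 0.72, SE 0.249, adjusted p = 0.0624 by edgeR), and was not called. Its exons share 1202 bases with Stard5 on the other strand, and the sources used here do not give the strand setting of the counting.

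Il12a, the p35 chain of interleukin 12, Il17d, a member of the interleukin 17 family, and Il4, the signal of type 2 immunity, were not called. Il12a stood at 3.04, 2.14 and 2.44 CPM in WT 1 to 3 and at 1.54, 1.88 and 3.53 CPM in dEx51 4 to 6 (log2 fold change -0.15, edgeR adjusted p = 0.778), and its highest and lowest values were both in dEx51. Il17d stood at 1.27, 0.712 and 0.716 CPM in WT 1 to 3 and at 1.45, 1.27 and 0.831 CPM in dEx51 4 to 6 (log2 fold change 0.39, edgeR adjusted p = 0.430). Il4 stood at 0.548 to 0.775 CPM in WT and 0.428 to 0.656 CPM in dEx51 (log2 fold change -0.16, edgeR adjusted p = 0.744). The groups overlapped for all 3 genes.

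Il6, Il1a, Il27 and Il7 were each too low to be tested. Il6, made by macrophages and by contracting or injured muscle, had 0, 0 and 3 counts in WT and 7, 0 and 0 counts in dEx51. All 7 dEx51 counts came from 1 library. Il1a, the membrane-bound and nuclear form of interleukin 1, had 2, 2 and 0 counts and 4, 4 and 2 counts. Il27, of the interleukin 12 family, had 1, 2 and 0 counts and 7, 2 and 0 counts, and the lymphocyte survival factor Il7 had 4, 0 and 3 counts and 3, 7 and 10 counts. For these 4 ligands a difference between genotypes was not detectable at this depth. Il4i1 was likewise untested, with 2, 2 and 2 counts in WT and 2, 4 and 2 counts in dEx51. Reads of Il4i1 are uncertain, since 3423 of its 4080 exon bases are shared with Tbc1d17 on the other strand, a gene with 2776 counts. Il1a shares 222 exon bases with Gm14023 (82 counts) and Il27 shares 103 with Apobr (348 counts), both on the other strand.

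Il1rn showed the widest gap of all the genes described. It encodes the interleukin 1 receptor antagonist, which occupies Il1r1 without signalling, and lies at chr2:24336853-24351494. No WT library held a single read, whereas dEx51 4, 5 and 6 held 156, 63 and 65 counts, or 6.67, 2.76 and 3.38 CPM. Against a floor of 3 counts over the whole WT group, Il1rn was at least 72.7-fold higher in dEx51 (edgeR adjusted p = 0.00222). Il18bp, which binds and neutralises interleukin 18, stood at 2.10, 1.97 and 1.86 CPM in WT 1 to 3 and at 3.85, 3.50 and 1.97 CPM in dEx51 4 to 6 (log2 fold change 0.65, SE 0.276, adjusted p = 0.113 by edgeR). The dEx51 6 library lay inside the WT range, and Il18bp was not called, but it was without dEx51 6 (log2 fold change 0.89). Il18bp shares 80 exon bases with Numa1 on the other strand, a gene with 7305 counts. Il22ra2, a soluble receptor that binds interleukin 22, had 8 counts in WT and 4 in dEx51 and was not tested.

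A cluster on chromosome 1 holds 6 receptor genes of the interleukin 1 family, all on the forward strand between 40074079 and 40551705: Il1r2, Il1r1, Il1rl2, Il1rl1, Il18r1 and Il18rap. Il1r1, the signalling receptor of interleukin 1, stood at 15.3, 9.86 and 13.4 CPM in WT 1 to 3 and at 29.9, 23.0 and 21.4 CPM in dEx51 4 to 6 (log2 fold change 0.95, SE 0.188, adjusted p = 0.00879 by edgeR). Il1rl2, the receptor of interleukin 36, stood at 3.54, 3.29 and 4.44 CPM in WT 1 to 3 and at 7.23, 8.53 and 6.54 CPM in dEx51 4 to 6 (log2 fold change 0.99, SE 0.180, adjusted p = 0.00648 by edgeR). Both were 1.93 to 1.98 times their WT mean and had no overlap between groups. Il18rap, the accessory chain of the interleukin 18 receptor, stood at 0.277, 0.164 and 0.501 CPM in WT 1 to 3 and at 1.20, 3.24 and 0.831 CPM in dEx51 4 to 6 (log2 fold change 2.53, SE 0.650, adjusted p = 0.0232 by edgeR). The dEx51 5 library held the highest value, and without dEx51 5 the log2 fold change was 1.75. The call was lost without WT 1 (2.46) or WT 2 (2.20).

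The other genes of the cluster were not called. Il1rl1, the ST2 receptor for interleukin 33 on regulatory T cells, mast cells and type 2 lymphoid cells, stood at 2.38, 1.92 and 2.65 CPM in WT 1 to 3 and at 4.02, 2.93 and 2.86 CPM in dEx51 4 to 6 (log2 fold change 0.51, edgeR adjusted p = 0.132). Its groups did not overlap, but the gap between WT 3 and dEx51 6 was small. Il1r2, a decoy receptor that binds interleukin 1 without signalling, stood at 0.443, 0.274 and 0.788 CPM in WT 1 to 3 and at 0.556, 0.394 and 0.831 CPM in dEx51 4 to 6 (log2 fold change 0.27, edgeR adjusted p = 0.697). Il18r1, the ligand-binding chain of the interleukin 18 receptor, had 3, 0 and 4 counts in WT and 10, 10 and 5 counts in dEx51 and was not tested. Il1rap, the accessory chain shared by Il1r1, Il1rl1 and Il1rl2, lies apart on chromosome 16 and stood at 4.81, 5.64 and 6.37 CPM in WT 1 to 3 and at 3.21, 6.04 and 5.35 CPM in dEx51 4 to 6 (log2 fold change -0.20, edgeR adjusted p = 0.575).

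Among receptors that pair with the common gamma chain, Il7r had the largest fitted fold change of the tested receptors. It encodes the interleukin 7 receptor alpha chain, known from lymphoid cells, where it also pairs with Crlf2 to bind the cytokine TSLP, and lies on the reverse strand at chr15:9505788-9530176. It stood at 0.221, 0.274 and 0.286 CPM in WT 1 to 3 and at 12.1, 7.04 and 15.8 CPM in dEx51 4 to 6, with group means going from 0.261 ± 0.0346 to 11.6 ± 4.39 CPM (SD, n = 3 each, log2 fold change 5.45, SE 0.414, adjusted p = 3.08e-04 by edgeR). All WT libraries held 4 or 5 counts. In contrast to the other genes that rose, Il7r was highest in dEx51 6, at 165% of the mean of dEx51 4 and dEx51 5.

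The common gamma chain itself, Il2rg, stood at 1.77, 0.548 and 1.29 CPM in WT 1 to 3 and at 3.29, 3.98 and 1.71 CPM in dEx51 4 to 6. The dEx51 6 value lay just under that of WT 1, and Il2rg was not called (log2 fold change 1.33, SE 0.445, adjusted p = 0.0578 by edgeR), although 7 of 15 alternative fits called it higher, among them the fits without dEx51 6 (1.6) and without WT 1 (1.74). Il2rb, the beta chain shared by the interleukin 2 and interleukin 15 receptors, rose and stood at 0.221, 0.164 and 0.501 CPM in WT 1 to 3 and at 1.07, 1.49 and 0.935 CPM in dEx51 4 to 6 (log2 fold change 2.03, SE 0.428, adjusted p = 0.0112 by edgeR). The call of Il2rb was lost without WT 2 (1.72, edgeR adjusted p = 0.0558). Il21r, the interleukin 21 receptor, stayed under the filter with 3, 0 and 1 counts in WT and 20, 16 and 4 counts in dEx51. With the filter lowered to 10 counts in all, Il21r was called higher (log2 fold change 2.82, edgeR adjusted p = 0.0387). It reached 10 counts only through the dEx51 libraries, so it had to be high there to be tested at all.

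The private alpha chains of the interleukin 2 and interleukin 15 receptors sit side by side on chromosome 2 with 12096 bases between them, and neither was called. Il15ra, which presents interleukin 15 to neighbouring cells, stood at 16.7, 25.2 and 27.4 CPM in WT 1 to 3 and at 17.8, 20.8 and 19.4 CPM in dEx51 4 to 6 (log2 fold change -0.26, edgeR adjusted p = 0.315). Il2ra, the CD25 chain of regulatory and activated T cells, stood at 2.66, 3.23 and 2.79 CPM in WT 1 to 3 and at 1.41, 3.02 and 3.06 CPM in dEx51 4 to 6 (log2 fold change -0.22, edgeR adjusted p = 0.628). Il15ra was called lower (-0.45) without WT 1. In both genes dEx51 4 was the lowest of the dEx51 libraries.

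Both chains of the type II receptor for interleukin 4 and interleukin 13 rose. Il13ra1, on chromosome X at chrX:36112110-36171259, stood at 5.81, 4.93 and 5.80 CPM in WT 1 to 3 and at 23.1, 19.0 and 16.5 CPM in dEx51 4 to 6 (log2 fold change 1.82, SE 0.156, adjusted p = 4.66e-04 by edgeR). All 3 dEx51 libraries lay well above WT, and the group means went from 5.51 ± 0.505 to 19.5 ± 3.33 CPM. Il4ra, the chain that carries the STAT6 docking sites, stood at 9.02, 8.99 and 12.7 CPM in WT 1 to 3 and at 24.6, 23.4 and 14.6 CPM in dEx51 4 to 6 (log2 fold change 1.04, SE 0.222, adjusted p = 0.0118 by edgeR). The gap between dEx51 6 and WT 3 was narrow, and the call of Il4ra was lost without WT 2 (0.95, edgeR adjusted p = 0.0547). Of their ligands, Il4 was not called and Il13 had 0 counts in all libraries, and the decoy Il13ra2 had 3 counts in all.

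The receptor genes of the gp130 group were not called. Il6st, which encodes gp130, stood at 278, 284 and 280.2 CPM in WT 1 to 3 and at 235, 250.1 and 284 CPM in dEx51 4 to 6 (log2 fold change -0.13, SE 0.0996, adjusted p = 0.356 by edgeR). Il11ra1, the interleukin 11 receptor, stood at 18.8, 16.6 and 16.3 CPM in WT 1 to 3 and at 18.9, 18.3 and 16.9 CPM in dEx51 4 to 6 (log2 fold change 0.07, edgeR adjusted p = 0.674), and near-identical Il11ra2 copies make its counts uncertain. Il6ra, the interleukin 6 receptor of hepatocytes and leukocytes, stood at 6.03, 12.4 and 16.4 CPM in WT 1 to 3 and at 15.6, 32.7 and 22 CPM in dEx51 4 to 6 (log2 fold change 1.02, SE 0.369, adjusted p = 0.0727 by edgeR). Within each genotype Il6ra spread over 2-fold, and dEx51 4 lay below WT 3. Called higher in 5 of 15 alternative fits, Il6ra stayed uncalled when any single library was left out.

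The 2 chains of the interleukin 10 receptor rose. Il10ra, the ligand-binding chain found mainly on leukocytes, stood at 2.99, 1.37 and 3.22 CPM in WT 1 to 3 and at 11.9, 22.9 and 8.20 CPM in dEx51 4 to 6, 5.68-fold higher in the group means (log2 fold change 2.52, SE 0.441, adjusted p = 0.00574 by edgeR). The values of dEx51 5 and dEx51 6 differed by more than 2-fold, yet all lay above WT. Il10rb, the widely expressed chain shared with the interleukin 22 and interferon lambda receptors, stood at 5.81, 4.60 and 4.87 CPM in WT 1 to 3 and at 13.8, 17.6 and 10.5 CPM in dEx51 4 to 6 (log2 fold change 1.46, SE 0.206, adjusted p = 0.00256 by edgeR). Il10 itself had 1 count in WT and 3 in dEx51. Il20rb, a chain of the interleukin 20 and interleukin 24 receptors, stood at 2.27, 2.79 and 2.44 CPM in WT 1 to 3 and at 2.65, 2.89 and 3.12 CPM in dEx51 4 to 6 and was not called (log2 fold change 0.20, edgeR adjusted p = 0.457).

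Of the interleukin 17 receptors only Il17ra, the chain common to the family, was called among the 3 tested. It stood at 3.04, 4.0 and 5.01 CPM in WT 1 to 3 and at 8.73, 13.6 and 8.15 CPM in dEx51 4 to 6 (log2 fold change 1.35, SE 0.257, adjusted p = 0.00774 by edgeR). Il17rc, which pairs with Il17ra for interleukin 17A and F, stood at 2.27, 2.58 and 1.58 CPM in WT 1 to 3 and at 2.82, 2.71 and 2.28 CPM in dEx51 4 to 6 (log2 fold change 0.27, edgeR adjusted p = 0.416). Il17rd, which also dampens fibroblast growth factor signalling, stood at 9.90, 12.4 and 13.8 CPM in WT 1 to 3 and at 8.13, 11.5 and 12.0 CPM in dEx51 4 to 6 (log2 fold change -0.19, edgeR adjusted p = 0.487). Il17re and Il17rb had 29 and 15 counts over all libraries and were not tested, and the ligand Il17a had 0 counts. Il17rb shares 141 exon bases with Actr8 on the other strand, a gene with 3604 counts.

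Receptors of the interleukin 12 and interleukin 3 families were low. Il27ra, the interleukin 27 receptor, stood at 0.443, 0.438 and 0.716 CPM in WT 1 to 3 and at 1.11, 0.919 and 0.883 CPM in dEx51 4 to 6, with the groups apart but not called (log2 fold change 0.89, SE 0.309, adjusted p = 0.0641 by edgeR). Il3ra, the interleukin 3 receptor alpha chain of basophils and myeloid cells, stood at 1.55, 0.493 and 1.36 CPM in WT 1 to 3 and at 2.91, 1.75 and 1.87 CPM in dEx51 4 to 6, likewise apart and not called (log2 fold change 0.95, SE 0.410, adjusted p = 0.119 by edgeR). Il12rb2, a chain of the interleukin 12 receptor, had 15 counts in WT and 29 in dEx51, and Il5ra, the eosinophil receptor for interleukin 5, had 6 and 5. Neither was tested. Il12rb2 shares 1519 exon bases with Serbp1 on the other strand, a gene with 44298 counts, so its reads are uncertain.

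**Figure D2:**
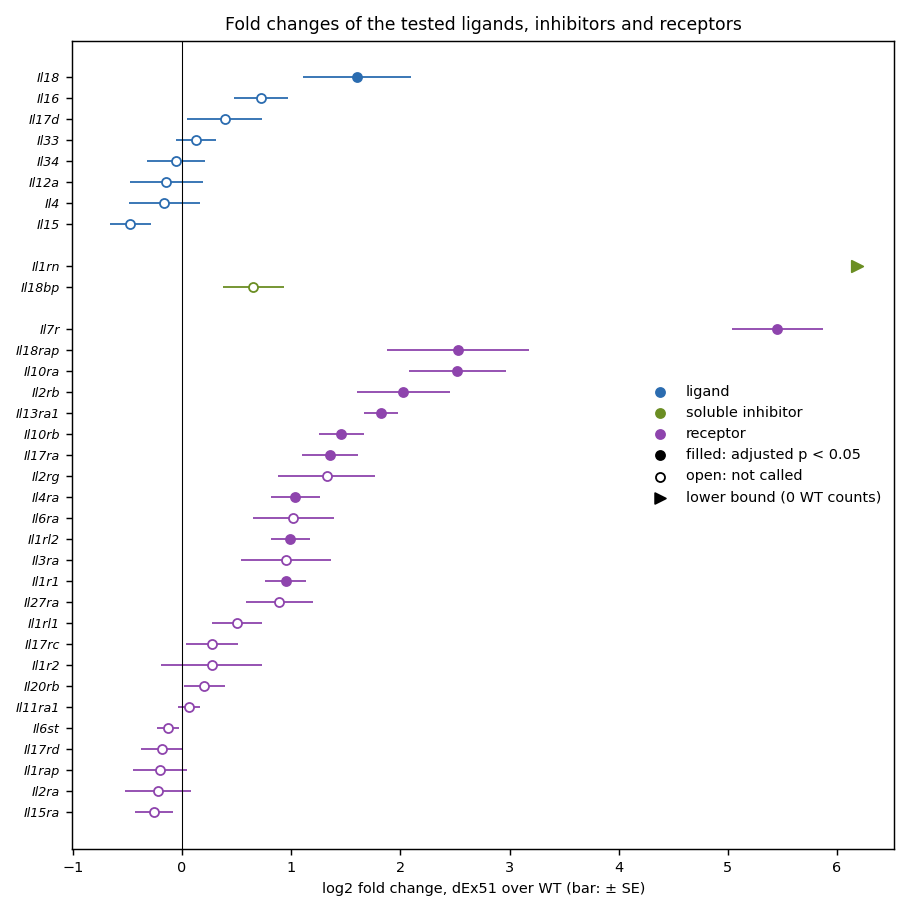
Log2 fold change of dEx51 over WT (points, with bars for ± SE) for the 34 tested genes, split into ligands (blue), soluble inhibitors (green) and receptors (purple), with filled points for adjusted p under 0.05. Il1rn, with 0 WT counts, is drawn as a lower bound at 6.18, and 10 receptors, 1 ligand and 1 inhibitor are filled.

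Starts of the 3 genes with the smallest adjusted p that have a promoter entry in RefSeq (GRCm38.p6) are printed to show the DNA next to genes that rose together. Each window runs 5′ to 3′ on the gene's strand, from 250 bases before the start site to 50 after it, and capitals mark matches to 4 motifs searched on both strands: GAGGAA (the core bound by PU.1, a myeloid factor), TTCNNNGAA (STAT), GGGA and TTCC with any 2 bases between (NF-kB) and TGANTCA (AP-1). The Il7r window is chr15:9529827-9530126 (reverse strand), that of Il1rn is the first of 3 annotated, chr2:24336610-24336909 (forward), and that of Il13ra1 is chrX:36111858-36112157 (forward). The Il7r window lies inside the GENCODE span of the gene given above, since RefSeq places the start site further into the gene.
Il7r: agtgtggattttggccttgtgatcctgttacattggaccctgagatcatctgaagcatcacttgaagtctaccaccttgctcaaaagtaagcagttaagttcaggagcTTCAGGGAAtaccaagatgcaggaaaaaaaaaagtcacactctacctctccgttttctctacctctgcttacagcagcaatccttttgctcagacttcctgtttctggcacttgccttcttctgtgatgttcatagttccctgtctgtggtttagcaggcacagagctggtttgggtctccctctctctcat
Il1rn: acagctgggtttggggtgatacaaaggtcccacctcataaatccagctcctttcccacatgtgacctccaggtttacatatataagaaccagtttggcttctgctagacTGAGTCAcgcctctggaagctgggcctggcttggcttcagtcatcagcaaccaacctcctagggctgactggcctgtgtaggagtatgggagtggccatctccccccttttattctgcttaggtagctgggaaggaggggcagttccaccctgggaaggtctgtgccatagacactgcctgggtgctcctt
Il13ra1: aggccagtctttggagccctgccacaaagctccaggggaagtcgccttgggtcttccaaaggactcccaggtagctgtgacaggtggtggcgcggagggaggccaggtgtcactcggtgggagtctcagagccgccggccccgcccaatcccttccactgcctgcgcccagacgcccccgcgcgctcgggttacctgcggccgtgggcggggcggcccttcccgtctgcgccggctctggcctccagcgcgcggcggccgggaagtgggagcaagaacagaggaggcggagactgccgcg
The Il7r window held 1 STAT match starting 142 bases before the RefSeq start site, the first Il1rn window 1 AP-1 match starting 141 bases before it, and the Il13ra1 window none of the 4. Promoter entries existed for 36 of the 46 genes, as 49 windows. PU.1 cores were in 13 of them (26.5%) against 28.3% of all 32851 windows, and STAT matches in 6 (12.2%) against 8.30%. AP-1 matches were in 7 (14.3%) against 7.81%, and NF-kB matches in 2 (4.08%) against 1.47%. The NF-kB windows were of Il16 and Il6, neither of which was called. Some windows of the same gene overlap. Of the 8 genes that rose and had an entry, 1 each held a PU.1 core (Il18rap), a STAT match (Il7r) and an AP-1 match (Il1rn), and 0 an NF-kB match. Counted by window, each of these matches was in 1 of 11 (9.09%), beside 28.3%, 8.30% and 7.81% of all windows. The later Il1rn windows held none of the 4. A match is a run of letters in a window and shows no binding.

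Scaled to transcript length as well as depth (RPKM, CPM per kilobase of transcript), the order of levels differed between genotypes. Il6st led in both, at 25.3 RPKM in WT and 23.1 RPKM in dEx51. In WT it was followed by Il15ra (5.20), Il11ra1 (3.85), Il15 (3.43) and Il34 (3.06 RPKM). In dEx51 the next were Il13ra1 (5.25), Il15ra (4.35), Il10ra (4.10) and Il11ra1 (4.03 RPKM). Il10ra had stood at 0.722 RPKM in WT, and Il7r went from 0.0559 to 2.5 RPKM. The summed level of the 46 genes was 425 to 457 CPM in WT and 489.7 to 542 CPM in dEx51, of which Il6st made up 235 to 284 CPM.

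**Figure D3:**
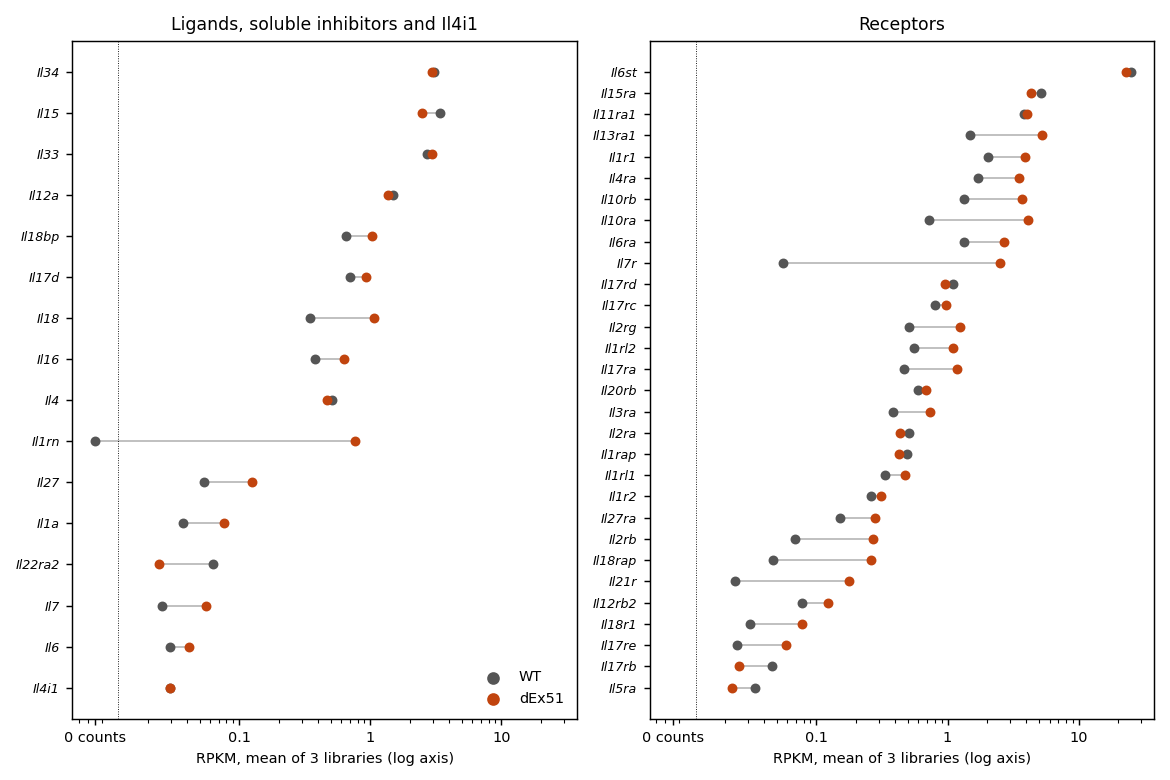
Mean RPKM over 3 libraries (log axis) of all 46 genes in WT (grey) and dEx51 (orange), joined by a line, with ligands, soluble inhibitors and Il4i1 on the left and receptors on the right; 0 counts is drawn left of the dotted line. Il6st is the most abundant in both genotypes, and the longest lines belong to Il1rn and Il7r.

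Receptor chains and cytokines of the same families under other symbols were counted in a list of 20 genes. Of these 14 were tested, of which 7 were higher and 0 lower, with a median of 0.94 on the log2 scale. Over all genes tested, 16.1% were higher and 11.9% lower. The 7 were 5 receptor chains and 2 cytokines. Csf2rb, the common beta chain of the interleukin 3, interleukin 5 and GM-CSF receptors, stood at 4.21, 2.41 and 3.51 CPM in WT 1 to 3 and at 17.6, 17.5 and 15 CPM in dEx51 4 to 6 (log2 fold change 2.31, SE 0.196, adjusted p = 4.57e-04 by edgeR). Csf2ra, its GM-CSF partner, stood at 1.72, 0.986 and 1.93 CPM in WT 1 to 3 and at 10.2, 9.06 and 6.54 CPM in dEx51 4 to 6 (log2 fold change 2.49, SE 0.278), and Csf1r, the receptor for Il34 and Csf1, at 20.4, 11.6 and 22.7 CPM in WT 1 to 3 and at 69.9, 108 and 57.1 CPM in dEx51 4 to 6 (log2 fold change 2.11, SE 0.300). No dEx51 library of these 3 genes, named for their small adjusted p, overlapped WT, where 23.8% of all tested genes had every dEx51 library above every WT library. The cytokines that rose, named after their values were seen, were Csf1 (log2 fold change 0.69, SE 0.185, adjusted p = 0.0267 by edgeR) and Clcf1, a ligand of the gp130 group (log2 fold change 0.98, SE 0.269, adjusted p = 0.0299 by edgeR). Csf2 and Csf3 had 0 counts in every library.

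Signalling genes inside the cell were counted next. Of 20 tested genes of the JAK, STAT and SOCS list, 4 rose and 1 fell (median 0.11), beside 16.1% higher and 11.9% lower over all genes tested, so its share of higher calls was near the background. The phosphatase gene Ptpn6, an inhibitor of cytokine receptors in blood cells, stood at 1.16, 0.986 and 2.01 CPM in WT 1 to 3 and at 8.30, 13.8 and 6.08 CPM in dEx51 4 to 6 (log2 fold change 2.79, SE 0.380). Stat6, which acts below Il4ra, rose by a smaller margin, from 31.9 ± 3.11 to 44.5 ± 3.40 CPM (log2 fold change 0.48, SE 0.105), and lost its call without WT 2 (0.41). Stat5b, used by the interleukin 2, 7 and 15 receptors, went from 297 ± 21.4 to 171 ± 40.2 CPM (log2 fold change -0.79, SE 0.171) and was lower in every dEx51 library. Scaled to library size alone 12 genes of this list were higher and 1 lower, and without WT 2 the counts were 1 and 1. Without WT 1 or dEx51 6, 3 were lower.

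In the MyD88, IRAK and inflammasome list 9 of 22 tested genes rose and 0 fell (median 0.47), beside 16.1% higher and 11.9% lower over all genes tested. Its leading genes were of the inflammasome. Casp1, the protease that activates interleukin 1 beta and interleukin 18, stood at 0.664, 0.712 and 1.15 CPM in WT 1 to 3 and at 4.02, 5.42 and 4.26 CPM in dEx51 4 to 6 (log2 fold change 2.46, SE 0.267, adjusted p = 0.00106 by edgeR). Pycard, the adaptor that recruits it, went from 0.740 ± 0.0663 to 3.09 ± 1.14 CPM (log2 fold change 2.07, SE 0.342), and Gsdmd, the pore through which those cytokines leave the cell, from 3.11 ± 0.228 to 7.37 ± 1.80 CPM (log2 fold change 1.24, SE 0.209). Groups did not overlap in any of the 3, which were named for their small adjusted p. Among all tested genes, 23.8% had every dEx51 library above every WT library. Scaled to library size alone, 18 genes of this list were higher. Without dEx51 4 or dEx51 5, 6 were.

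**Figure D4:**
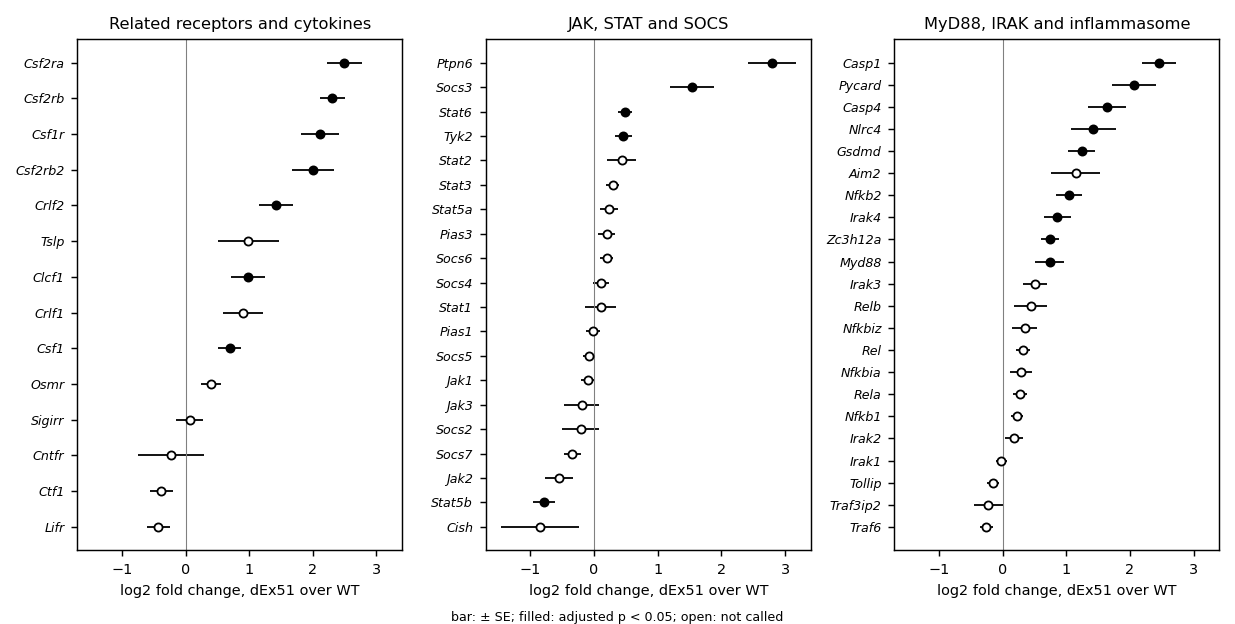
Log2 fold change of dEx51 over WT (points, with bars for ± SE) of the tested genes in 3 lists: related receptors and cytokines (14 genes), JAK, STAT and SOCS (20) and MyD88, IRAK and inflammasome (22), with filled points for adjusted p under 0.05. Filled points number 7, 5 and 9, and Stat5b is the one filled point below 0.

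The macrophage and monocyte list rose as a whole, where 16.1% of all genes tested were higher. All 14 macrophage and monocyte markers were tested and rose (median 3.06 on the log2 scale), with a summed level of 88.1 to 172 CPM in WT and 939, 1411 and 664 CPM in dEx51 4, 5 and 6. Lgals3, which encodes galectin-3, stood at 2.21, 2.68 and 3.58 CPM in WT 1 to 3 and at 115, 113 and 85.4 CPM in dEx51 4 to 6 (log2 fold change 5.23, SE 0.200). Cd68, a lysosomal protein of phagocytes, stood at 4.32, 1.59 and 2.79 CPM in WT 1 to 3 and at 47.2, 59.5 and 40.6 CPM in dEx51 4 to 6 (log2 fold change 4.08, SE 0.304), and the surface receptor gene Adgre1 at 5.48, 2.85 and 6.80 CPM in WT 1 to 3 and at 42.4, 58.5 and 27.4 CPM in dEx51 4 to 6 (log2 fold change 3.10, SE 0.357). The dEx51 6 library was the lowest of the 3 for this list, as it was for 10 of the 12 genes that rose. That order was not particular to macrophage markers. In sum dEx51 6 was also the lowest of the 3 for the neutrophil, B cell, mast cell and endothelial lists described below. It was the highest for the muscle fibre, T cell, natural killer and progenitor lists. Much of the progenitor sum was Dcn, which was not called, at 466, 480 and 661 CPM in dEx51 4 to 6. Pdgfra of that list was also highest in dEx51 6, but Mfap5, Dpt, Ly6a and Cd34 were lowest there. The natural killer sum was nearly all Rora. The part of macrophage number in the rise of Il10ra, Il4ra, Il13ra1, Il17ra, Il1rn and the others was not tested.

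Most T cell, B cell and neutrophil markers were too low to be tested. Of 10 T cell markers 2 were tested and both rose, Cd4 at 0.221, 0.274 and 0.573 CPM in WT 1 to 3 and at 1.45, 1.49 and 2.18 CPM in dEx51 4 to 6 (log2 fold change 2.29, SE 0.389) and Cd3e at 0.166, 0.274 and 0.573 CPM in WT 1 to 3 and at 0.898, 0.787 and 1.25 CPM in dEx51 4 to 6 (log2 fold change 1.57, SE 0.441). Cd3e lost its call without WT 1, WT 2 or any 1 dEx51 library (log2 fold change 1.23 to 1.71), which leaves 1 T cell marker. The list summed to 1.15 to 2.22 CPM in WT and to 4.41, 3.81 and 4.73 CPM in dEx51 4, 5 and 6. Cd3g was the one marker of the list at 0 in every WT library.

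Of 8 neutrophil markers 1 was tested and rose, Csf3r (log2 fold change 4.06, SE 0.623). The granule genes Mpo and Elane and the surface marker Ly6g had 0 counts in every library, and the list summed to 0.329 to 1.93 CPM in WT and 2.96 to 8.97 CPM in dEx51. Of 6 B cell markers 1 was tested and rose, Cd22 (log2 fold change 4.85, SE 0.525), with the list at 0.645 to 0.885 CPM and 2.39 to 4.11 CPM. Among 8 natural killer and innate lymphoid markers 0 of 2 tested were called. That list summed to 176 to 255 CPM in WT and 124 to 215 CPM in dEx51, nearly all of it Rora, a gene of many tissues, at 176 to 253 and 121 to 213 CPM. The mast cell, basophil and eosinophil list had 0 of 5 tested genes called, at 10.1 to 16.9 CPM and 14.6 to 21.9 CPM. Eomes of the first list and Ccr3 of the second were at 0 in every WT library. Ccr3 had 8, 9 and 7 counts in dEx51 4 to 6, so it reached 10 counts only through dEx51, and was not tested. With no filter, 2 genes of each list were called higher. With a filter of 10 counts in all, 2 of the second list were and 0 of the first. Whether these cells had a part in the rise of Il7r, Il2rb, Il18rap or Il18 was not tested.

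Stromal lists moved in opposite directions, where 16.1% of all genes tested were higher and 11.9% lower. Of 8 fibro-adipogenic progenitor markers 4 rose and 0 fell (median 0.63), at 614 to 815 CPM in WT and 896 to 1101 CPM in dEx51 in sum. Mfap5 (log2 fold change 1.39, SE 0.13), Dpt (log2 fold change 1.07, SE 0.102) and Pdgfra (log2 fold change 0.82, SE 0.118) led this list. Of 8 endothelial markers 0 rose and 5 fell (median -0.57), at 506 to 596 CPM and 352 to 437 CPM, led by Tek (log2 fold change -0.53, SE 0.0918), Tie1 (log2 fold change -0.59, SE 0.109) and Robo4 (log2 fold change -0.69, SE 0.132). Scaled to library size alone all 5 endothelial calls ended and 7 progenitor markers were higher. Their part in the values of Il33, Il1r1 or Il34 was not tested.

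**Figure D5:**
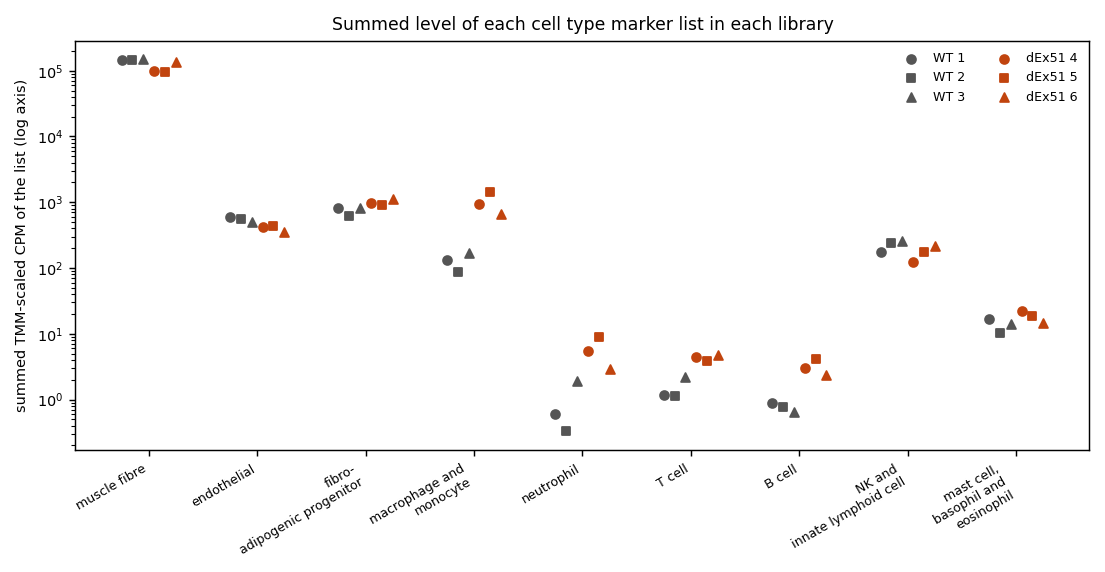
Summed TMM-scaled CPM (log axis) of 9 cell type marker lists in each of the 3 WT (grey) and 3 dEx51 (orange) libraries. The macrophage and monocyte list is at 88.1 to 172 CPM in WT and 664 to 1411 CPM in dEx51, while the T cell list stays under 5 CPM.

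Leaving out dEx51 6 kept all 12 calls and gave 12 receptors and 1 ligand called higher, whereas 8 of the 12 calls remained without WT 2. Relative to the mean of dEx51 4 and dEx51 5, dEx51 6 held 37.5% for Il18rap, 47.1% for Il10ra, 51.9% for Il18 and 61.0% for Il4ra. It held 83.0% for Il1rl2 and 81.1% for Il1r1. Of the 12 genes, 7 were highest in dEx51 5, 4 in dEx51 4 and 1, Il7r, in dEx51 6. The authors' deposited table, made with a likelihood-ratio test, holds 33 of the 46 genes and calls 18 higher and 1, Il15, lower. Over all 13958 genes of that table, 2666 were higher and 2629 lower. The 18 include all 12 genes called here, but both tests used the same libraries, so the shared calls are not independent. A single gene with 3 against 3 libraries cannot go below p = 0.1 in an exact permutation test, so calls rest on the model across all genes.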

How the data were processed

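Read counts per gene came from 3 WT and 3 dEx51 libraries of tibialis anterior muscle. The authors deposited raw counts for 54232 genes with gene lengths. Per the submitters' processing notes the tools were FastQC 0.11.4, featureCounts 1.6.0 and edgeR 3.30.1 and the build GRCm38 (mm10). Per the labels the libraries were stranded. The sources used here do not give the aligner, annotation release or strand setting. The authors' deposited comparison table holds log2 fold changes and log2 CPM, a likelihood-ratio score, p-values and adjusted p-values, and the −log10 p-value, per the file headers. Their deposited RPKM table was not used, because RPKM follows from the counts and lengths.

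The main test was the edgeR 4.0.16 (R 4.3.3) quasi-likelihood F-test, two-sided, on TMM-scaled counts. It covered the 14335 genes that passed the default filter (0.508 CPM before TMM scaling, in 3 libraries). Benjamini-Hochberg adjustment was over all 14335. SE is the absolute log2 fold change over the square root of F. Lengths of all 46 genes equalled their exon lengths in GENCODE M21 (GRCm38), whose coordinates are given. Of the genes called, Il10rb shares 569 exon bases with a gene on the same strand and Il4ra 571 with one on the other strand. Both of those genes had 0 counts. Whether reads in the shared bases were left out of the counting was not tested.

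Members, roles and the 12 lists (147 entries) were chosen with earlier results of these data known. Each gene called, and each uncalled gene of at least 1 CPM, is given per library. From other lists up to 3 genes of smallest adjusted p and 1 opposite call are named, and other genes were chosen after their values were seen. Alternatives were other scalings, filters and tools (DESeq2 1.42.0, limma-voom in limma 3.58.1, the likelihood-ratio test), a replicate block and each library left out. Scripts were tested on simulated data. Chi-square per degree of freedom between libraries of a group was 8.08 to 42.9, so none repeats another. Counting limits cover counting error only.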

Additional observations from a re-analysis of the deposited data

How the results depend on the processing

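Of the 12 genes called higher, 8 kept the call in each of the 15 alternatives that tested them, and Il18, Il18rap, Il2rb and Il4ra lost it in at least 1. Of the 22 tested genes that were not called, 10 were called in at least 1 alternative. With no scaling beyond library size, 5394 genes were higher and 334 lower, among them 16 receptors and 2 ligands, all higher. Ligands called higher numbered 2 with no filter or the likelihood-ratio test, and 0 with limma-voom or with a filter of CPM over 1 in at least 3 libraries. Leaving out single libraries gave 1346 (without WT 2) to 2662 (without dEx51 6) genes higher, 663 (without WT 2) to 2157 (without dEx51 6) lower, 7 (without WT 2) to 12 (without dEx51 6) receptors higher, 0 to 1 ligands higher and 0 to 1 receptors lower. Depth limits Il7r, Il1rn, Il18, Il18rap and Il2rb, whose WT counts were 0 to 10 per library. Only uncalled genes changed sign. With library size alone the log2 fold changes were 0.13 for Il2ra, 0.10 for Il15ra, 0.18 for Il12a, 0.30 for Il34, 0.16 for Il17rd, 0.19 for Il4, 0.21 for Il6st and 0.15 for Il1rap. With single libraries left out the ranges were -0.045 to 0.69 for Il1r2, -0.39 to 0.070 for Il2ra, -0.57 to 0.081 for Il12a, -0.26 to 0.16 for Il34, -0.27 to 0.013 for Il4, -0.39 to 0.027 for Il1rap and -0.053 to 0.26 for Il33. The cause was not tested. Libraries of both genotypes carry biological replicate numbers 1 to 3, but deviations of same-numbered libraries correlated at 0.35, -0.010 and 0.056, and 2 of 6 libraries correlated best with their own number. With the replicate block 13 receptors and 1 ligand were higher and 1 ligand, Il15, lower.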

Other observations

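Interleukin genes under 10 counts fall outside the description above and are given as counts. Of 37 ligand IDs, 25 had fewer than 10 counts and 13 had 0, and of 42 receptor IDs, 12 had fewer than 10 and 5 had 0. Il1b had 0 counts in WT and 6, 2 and 0 in dEx51 4, 5 and 6. Il12b, the shared p40 chain of interleukins 12 and 23, had 0 in WT and 3, 3 and 0 in dEx51. Il11 had 3 counts in WT and 3 in dEx51, Il23a 2 and 5, and Il5 3 and 4. The interleukin 12 receptor chain Il12rb1 had 2 and 7, and the interleukin 9 receptor Il9r 2 and 7. These counts were too few for a test, and a difference was not detectable at this depth.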
